A study of Mus musculus with 4 samples.

Results

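The platelet adhesion receptors and their ligand von Willebrand factor were examined in mouse haematopoietic stem cells (HSCs), which maintain themselves in bone marrow and supply every blood lineage. The 10 genes were chosen by name: Gp1ba, Gp1bb, Gp9 and Gp5, the chains of the GPIb-IX-V receptor; Gp6 and Clec1b, the receptors for collagen and podoplanin; Itga2b and Itgb3, the chains of the fibrinogen receptor; and Vwf and Selp, which encode von Willebrand factor and P-selectin. All 10 were found among the 34315 features of the deposited table, 9 of them in a row of their own and Gp1bb in a row shared with its neighbour Sept5. The wild-type group is 4 mRNA libraries from C57BL/6 mice, made from freshly sorted side population cells with the KSL-CD150+ surface phenotype and labelled as technical replicates of biological replicate 1. The other arm, labelled Dnmt3a-KO and sorted in the same way, enters only as the authors' mean count over 4 libraries, their log2 fold change and their adjusted p. How the Dnmt3a gene, which encodes a de novo DNA methyltransferase, was deleted, the mice's ages and the number of animals per arm are not stated in the labels.

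Platelets are shed by megakaryocytes, and their receptors act in sequence at a vessel wound. GPIb-IX-V catches von Willebrand factor bound to exposed collagen and slows the platelet, GPVI and CLEC-2 then signal through Syk kinase, and the integrin of Itga2b and Itgb3 switches to a state that binds fibrinogen and joins platelets together. Von Willebrand factor and P-selectin are stored in granules of platelets and of endothelial cells, and both Vwf and the Itga2b product CD41 are also known from a platelet-primed fraction of HSCs. Most of these genes are classical targets of the transcription factors GATA1 and of the ETS family in megakaryocytes.

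The DNA just upstream of 4 of the genes is shown because it carries the motifs named in the comparison below. Gp5 and Gp1ba had the lowest ratios of the arm labelled knockout to wild type among the 9 genes tested, and Clec1b and Selp were among those with positive log2 fold changes. Each sequence is the 250 bases before the RefSeq gene start, 5′ to 3′ on the strand of the gene. Capitals mark the core GATA motif GATAA and the ETS motif AGGAAG, or on the opposite strand their complements TTATC and CTTCCT.
Gp5 (GRCm38.p6, chr16:30310782-30311031, minus strand): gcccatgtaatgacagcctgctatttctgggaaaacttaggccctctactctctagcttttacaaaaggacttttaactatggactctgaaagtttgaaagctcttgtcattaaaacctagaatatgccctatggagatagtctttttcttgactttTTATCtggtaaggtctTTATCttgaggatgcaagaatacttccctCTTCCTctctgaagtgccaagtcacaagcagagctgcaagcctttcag
Gp1ba (GRCm38.p6, chr11:70638872-70639121, plus strand): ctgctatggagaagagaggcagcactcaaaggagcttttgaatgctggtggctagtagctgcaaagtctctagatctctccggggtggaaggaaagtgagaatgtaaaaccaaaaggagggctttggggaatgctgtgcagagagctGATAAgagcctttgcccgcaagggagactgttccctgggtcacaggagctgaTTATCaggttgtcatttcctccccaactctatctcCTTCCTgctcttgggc
Clec1b (GRCm38.p6, chr6:129397047-129397296, plus strand): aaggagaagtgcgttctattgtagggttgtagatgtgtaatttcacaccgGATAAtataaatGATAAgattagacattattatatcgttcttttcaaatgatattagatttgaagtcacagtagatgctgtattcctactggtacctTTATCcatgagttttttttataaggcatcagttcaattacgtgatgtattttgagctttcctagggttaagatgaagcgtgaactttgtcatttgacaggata
Selp (GRCm38.p6, chr1:164115014-164115263, plus strand): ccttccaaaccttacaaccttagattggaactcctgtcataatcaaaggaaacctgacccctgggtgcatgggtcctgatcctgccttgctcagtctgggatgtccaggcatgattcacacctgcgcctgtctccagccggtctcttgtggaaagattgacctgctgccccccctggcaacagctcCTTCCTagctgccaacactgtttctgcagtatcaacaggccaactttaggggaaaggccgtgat

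RefSeq windows were found for 8 of the 10 genes, and Vwf and Itgb3 are named only. GATAA was present on either strand in 5 of the 8 windows, those of Gp1ba, Gp9, Gp5, Gp6 and Clec1b, against 22.6% of 32851 windows of the same length over all genes. It occurred at least 2 times in 3 of them, Gp1ba, Gp5 and Clec1b, against 4.28% of all windows. AGGAAG was present in 5 of the 8, those of Gp1ba, Gp9, Gp5, Itga2b and Selp, against 29.5% of all windows, and the second ETS motif searched, CGGAAG, in Gp1bb alone, against 13.6%. In Gp5 both copies of GATAA lay on the opposite strand, starting 93 and 77 bases before the gene start. AGGAAG started there at 48, also on the opposite strand. In Gp1ba GATAA started at 103 and, on the opposite strand, at 51. AGGAAG started at 16 in both Gp1ba and Gp9, on the opposite strand in each. Of the tested genes with GATAA, Gp1ba, Gp9 and Gp5 had negative log2 fold changes and Clec1b a positive one. Of those without it, Itga2b had a negative one, and Selp and the row of Gp1bb and Sept5 positive ones. Any part of the motif in the direction was not tested.

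Library totals ran from 40709659 to 47408552 counts. The 4 libraries fell into 2 pairs, with a median chi-square per degree of freedom of 0.769 between libraries 1 and 2 and 0.675 between libraries 3 and 4 over features with an average of at least 20 counts, but of 14.7 to 15.4 between a library of one pair and a library of the other (0.455 is the median for counting noise). Libraries of a pair differed by more than counting noise, with a mean chi-square per degree of freedom of 2.09 and 1.88 where counting gives 1, but by far less than libraries of different pairs, at 136 to 138. Each pair is averaged and counted as 1 sample in each SD printed after ±, and any spread between libraries is labelled technical. The sort markers Kit, Ly6a, Slamf1, Abcg2 and Procr and the stem cell factors Mecom and Hlf were all present, at a summed level of 103031 to 133009 normalised counts, while the lymphoid lineage markers Cd3e and Ms4a1 stayed at or below 38.9. The myeloid lineage marker Itgam had 1312, 1282, 487 and 476 normalised counts in libraries 1 to 4. Dnmt3a itself was at 8229, 8569, 5400 and 5208 normalised counts in libraries 1 to 4 and was not lower in the other arm, where the authors' deposited table gives it a log2 value of 0.30 (adjusted p 0.952). Counts summed over the gene would miss the loss of single exons, so they do not settle the label, and the second arm is called the arm labelled knockout.

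In wild-type HSCs 8 of the 10 genes were read at 79 or more counts in every library, as was the row that Gp1bb shares with Sept5, and the collagen receptor gene Gp6 was not. Levels between genes are compared as normalised reads per kb of exon. Itga2b, whose product CD41 is an early marker of the megakaryocyte lineage and of some HSCs, was the highest at 4872 reads per kb ± 701 (SD, n = 2 pair means), within the top 1.83% of the 25176 features with a wild-type read. Vwf followed at 2423 ± 746 (SD, n = 2), Selp at 1910 ± 863 (SD, n = 2) and Itgb3, the beta chain that pairs with Itga2b, at 1655 ± 621 (SD, n = 2). The ranges of Vwf, Selp and Itgb3 over the 4 libraries overlap, although Vwf stood above Selp and Selp above Itgb3 within each library.

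The chains of the Vwf receptor were lower and unequal. Gp9, the small chain GPIX that is needed to bring the complex to the surface, was at 1259 reads per kb ± 32 (SD, n = 2), within the range of Itgb3: it stood above Itgb3 in libraries 1 and 2 (1266 and 1297 against 1226 and 1206) and below it in libraries 3 and 4. Gp5, the accessory chain that thrombin cleaves, was at 990 ± 2.96 (SD, n = 2). That SD is smaller than the spread of single libraries, which ran from 965 to 1020. Gp1ba, the chain that binds von Willebrand factor, was at 370 ± 31.2 (SD, n = 2). The row of Gp1bb, the chain linked to GPIbα by disulphide bonds, stood at 208 ± 4.6 (SD, n = 2) with Sept5 included, so the part due to Gp1bb alone is unknown. The ranges of Gp9, Gp5, Gp1ba and the Gp1bb row did not overlap one another.

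The signalling receptors were the lowest. Clec1b, the receptor CLEC-2, was at 88.3 reads per kb ± 16.5 (SD, n = 2), near the middle of all features with a read (top 49.5%). Gp6, which needs the Fc receptor chain Fcer1g to reach the surface, had 2, 2, 0 and 1 reads in libraries 1 to 4. These 5 reads have an exact Poisson 95% interval of 1.62 to 11.7, which like other such intervals covers counting error only. Fcer1g was at 553 to 633 normalised counts, so the partner chain was read where the collagen receptor was nearly absent.

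**Figure D1:**
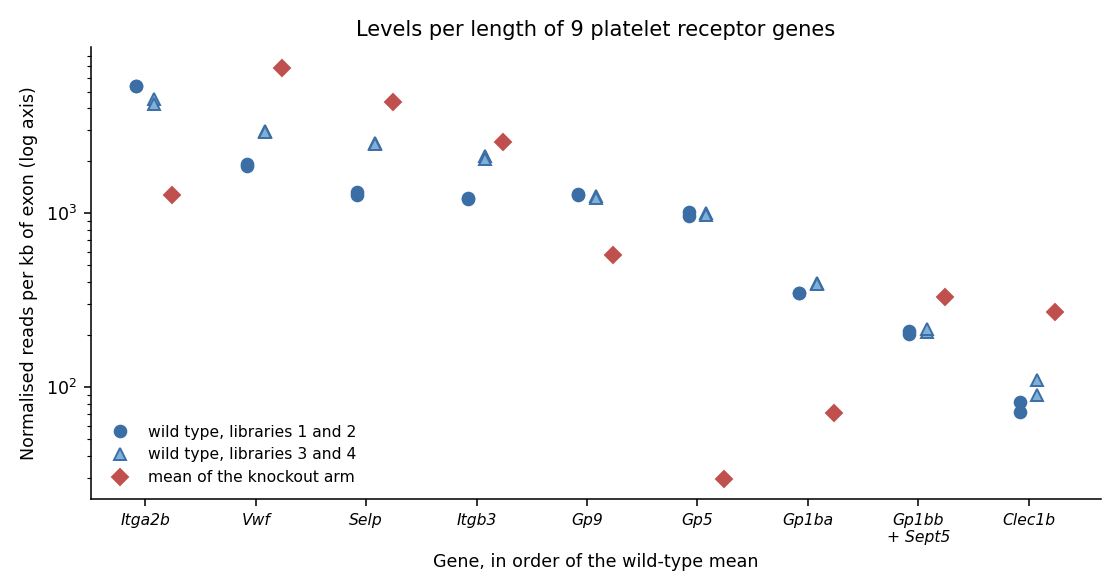
Normalised reads per kb of exon (log axis) for 9 genes in order of their wild-type mean, with each wild-type library and the mean of the arm labelled knockout as a diamond. In wild type Itga2b stood highest at 4872, and in the arm labelled knockout Vwf did, at 6844, while Gp5 went from sixth to the lowest of the 9 shown at 29.7. Gp6, with 5 reads in all, is not drawn.

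The 2 pairs of wild-type libraries differed in some of these genes and not in others. Selp was at 4365, 4531, 8668 and 8582 normalised counts in libraries 1 to 4. The pair means were 1.94-fold apart, far more than the 3.73% between libraries 1 and 2. Itgb3 was at 7066, 6954, 12301 and 11847 normalised counts in libraries 1 to 4, a ratio between pairs of 1.72. Vwf was at 16466, 16770, 26083 and 25639, a ratio of 1.56. These 3 genes of 9 with a mean of at least 100 counts were at least 1.5-fold higher in libraries 3 and 4, a fold size set with the values known. Over all 13093 features at that level, 6.44% were as much higher. No member was at least 1.5-fold lower in libraries 3 and 4, as 10.9% of all features were, and none was 2-fold apart, as 1.61% of all features were upward and 4.44% downward.

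Itga2b went the other way from its partner chain, with 18243, 18334, 15375 and 14442 normalised counts in libraries 1 to 4 and a ratio between pairs of 0.815. The Vwf receptor chains were nearly level. Gp5 was at 2231, 2109, 2184 and 2137 normalised counts in libraries 1 to 4, Gp9 at 1024, 1049, 1013 and 987, and the Gp1bb row at 755, 723, 752 and 774. The pairs overlapped for Gp5 and the Gp1bb row and not for Gp9, with ratios between pairs of 0.996, 1.03 and 0.965, and the sign of the difference depends on the scaling for Gp5 and the Gp1bb row. Gp1ba was at 948 and 953 normalised counts, then 1078 and 1063, a ratio of 1.13. Clec1b, with 79, 91, 110 and 136 reads, had a ratio of 1.30, but libraries 3 and 4 themselves differed by 19.6% there. No test of the pairs was run, because no label makes them groups.

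Between the arm labelled knockout and wild type, 9 of the 10 genes were tested by the authors, Gp1bb only through the row shared with Sept5. The comparison asks whether these transcripts differ in HSCs labelled as lacking Dnmt3a. Gp5 fell by a factor of 32.4 in the authors' deposited table (adjusted p 2.85e-05), and it was the only one of the 9 called at the 0.05 threshold. That is 1 gene of 9 lower, against 3.70% of the 21778 tested features, and 0 of 9 higher, against 3.15%. At a threshold of 0.1 Gp1ba joined it, for 2 of 9 lower against 5.13% and 0 higher against 4.25%, and at 0.01 the count was 1 lower against 1.78% and 0 higher against 1.75%. Unadjusted p-values were not at hand. With wild-type libraries labelled technical replicates of 1 biological replicate, the authors' p-values here and below cannot be taken to measure variation between animals. The smallest fold among all called features was 5.69, and no tested gene with a smaller difference was called. By the authors' deposited table the 9 genes had a median log2 value of 0.64, against -0.10 for all tested features. Values in bulk RNA cannot tell fewer cells of a type from less RNA per cell.

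Within the Vwf receptor the log2 fold changes spread widely. Gp5 (mm9, chr16:30307779-30310865) stood at 2231, 2109, 2184 and 2137 normalised counts in wild type and at 64.9 in the arm labelled knockout, with no overlap. Gp1ba (chr11:70452624-70455557) stood at 948, 953, 1078 and 1063 in wild type and at 194 in the arm labelled knockout. The authors' deposited table puts it at a log2 value of -2.38, or 5.19-fold lower (adjusted p 0.0686), so it missed the threshold. Gp9 (chr6:87728130-87729756) stood at 987 to 1049 normalised counts in wild type and at 465 in the arm labelled knockout, below all 4 libraries. The authors' deposited table puts Gp9 at a log2 value of -1.13 (adjusted p 0.569). The Gp1bb and Sept5 row (chr16:18620412-18630031) had the opposite sign, with 723 to 774 normalised counts in wild type and 1187 in the arm labelled knockout. The row's log2 value was 0.66 (authors' deposited table, adjusted p 0.826), and reads of Sept5 cannot be separated from those of Gp1bb. The promoter windows of Gp5 and Gp1ba each hold 2 copies of GATAA, that of Gp9 1 and that of Gp1bb 0. Outside this receptor, that of Clec1b holds 3 and that of Itga2b 0. A link between copies and fold change was not tested.

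The integrin chains had opposite signs. Itga2b (chr11:102314611-102331197) stood at 14442 to 18334 normalised counts in wild type and at 4344 in the arm labelled knockout. By the authors' deposited table it was 3.82-fold lower, a log2 value of -1.93 (adjusted p 0.174), and not called. Itgb3 (chr11:104469314-104531785), which also pairs with the alpha chain Itgav on HSCs, stood at 6954 to 12301 in wild type and at 14885 in the arm labelled knockout. The authors' deposited table holds a log2 value of 0.64 for it (adjusted p 0.834). Against libraries 3 and 4 alone the log2 ratio for Itgb3 was 0.30, and against libraries 1 and 2 alone 1.09, so the choice of library pair moves it by over 1.5 times.

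The stored ligand and P-selectin had positive log2 fold changes. Vwf (chr6:125502981-125636695) stood at 16466 to 26083 normalised counts in wild type and at 59985 in the arm labelled knockout, above all 4 libraries. The difference, 2.82-fold in the authors' deposited table (adjusted p 0.364), was not called. Against libraries 1 and 2 alone the log2 ratio for Vwf was 1.85, and against libraries 3 and 4 alone 1.21. Selp (chr1:166045395-166080157) stood at 4365 to 8668 normalised counts in wild type and at 14888 in the arm labelled knockout. For Selp the authors' deposited table holds a log2 value of 1.19 (adjusted p 0.534). Against libraries 1 and 2 alone the log2 ratio was 1.74, and against libraries 3 and 4 alone 0.79. Selp shares 4.17% of its span with Gm16548 on the other strand, and that feature had 420, 445, 664 and 758 normalised counts in libraries 1 to 4 and 1295 in the arm labelled knockout. Without strand information, which the named kit does not keep, the shared stretch cannot be assigned to either.

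Of the signalling receptors, Clec1b (chr6:129347315-129355431) stood at 83.1, 95.3, 105 and 128 normalised counts in wild type and at 313 in the arm labelled knockout. It was 3.02-fold higher by the authors' deposited table (log2 value 1.59, adjusted p 0.321) and was not called. Gp6 (chr7:4320315-4349346) had a mean of 0 reads in the arm labelled knockout and was not tested. With both arms at about the floor of 3 counts, no fold is given.

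**Figure D2:**
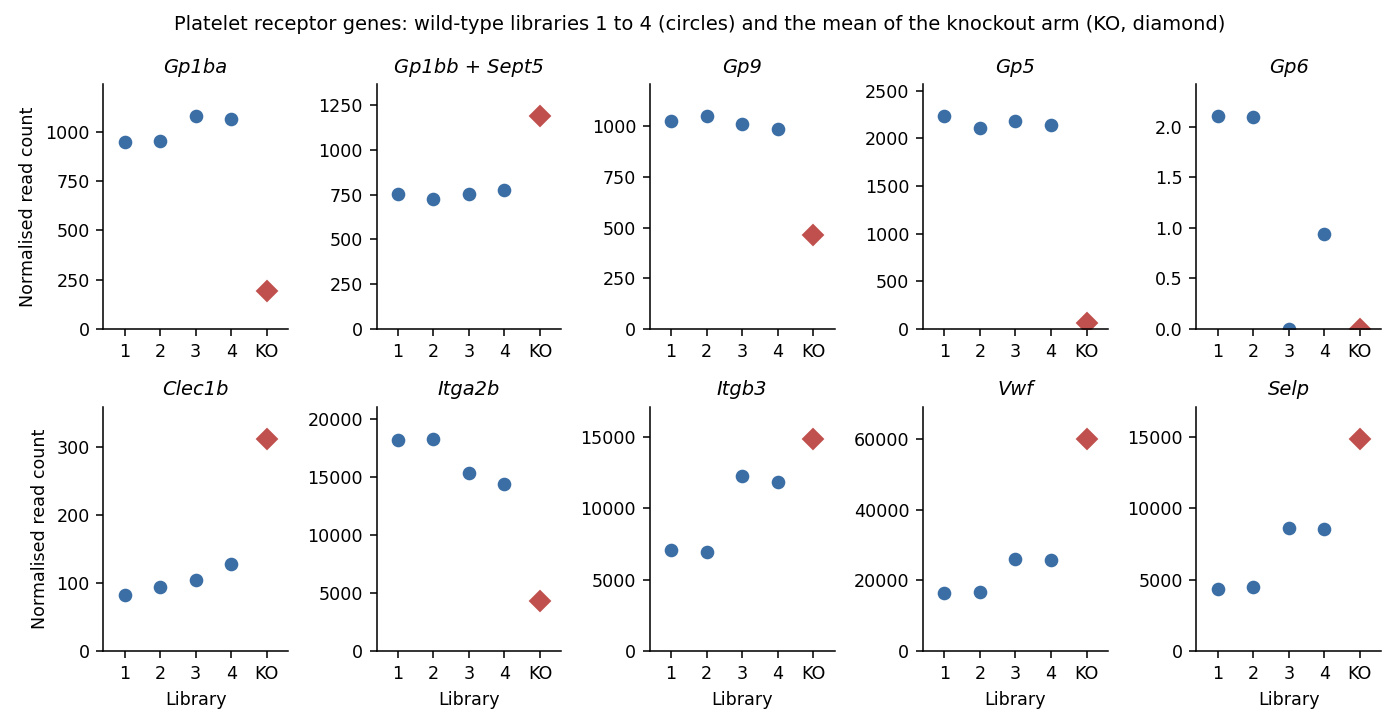
Normalised read counts of the 10 genes, each on its own axis from 0, in wild-type libraries 1 to 4 (circles) and as the mean of the arm labelled knockout (KO, diamond). The diamond lies below all circles for Gp1ba, Gp9, Gp5 and Itga2b and above all circles for the Gp1bb row, Clec1b, Itgb3, Vwf and Selp.

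The mean of the arm labelled knockout lay above all 4 wild-type libraries for 5 of the 9 tested genes and below all 4 for the other 4. Over all tested features 34.9% lay above and 37.9% below, so lying outside the wild-type libraries is common and says little of these genes. With a wild-type library left out or against either pair alone, the direction of the 9 genes could not change, because each mean lay outside all 4 libraries. Under each scaling tried, where it could have changed, it was the same. Placing the arm labelled knockout by total counts shifts all of its log2 values by -0.34.

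**Figure D3:**
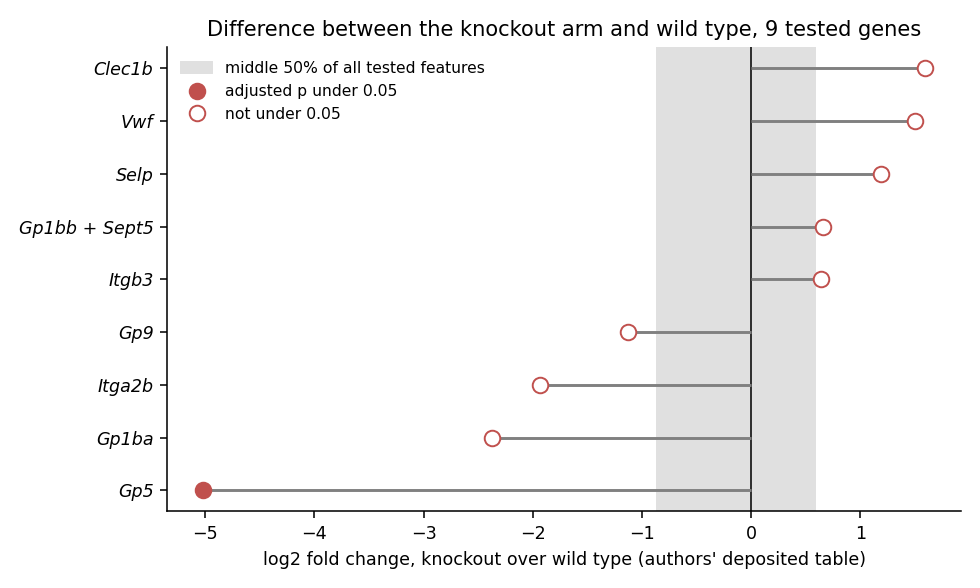
Log2 fold change of the arm labelled knockout over wild type in the authors' deposited table for the 9 tested genes, with the middle 50% of all tested features shaded (-0.87 to 0.59). Gp5, filled, is the gene with an adjusted p under 0.05. The open circles run from -2.38 for Gp1ba to 1.59 for Clec1b.

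Ratios between genes within a library do not depend on the scaling between libraries. The 6 pairs were chosen after their values were seen and are a description, with no test. Per kb of exon, Vwf over the chain that binds its product, Gp1ba, was 5.41, 5.48, 7.53 and 7.50 in wild-type libraries 1 to 4 and 96.3 in the arm labelled knockout. The ligand thus outweighed its receptor chain in every library and by far the most in that arm. Itga2b over Itgb3 was 4.37, 4.46, 2.11 and 2.06 in wild type and 0.494 in the arm labelled knockout, so the more abundant chain changed from the alpha to the beta chain. Gp5 over Gp9 was 0.744 to 0.806 in wild type and 0.0516 in the arm labelled knockout. Gp1ba over Gp9 was 0.269 to 0.320 and 0.124, and Gp5 over Gp1ba 2.51 to 2.94 and 0.418. Vwf over Selp, products stored in the same granules, differed least, at 1.17 to 1.47 in wild type and 1.57 in the arm labelled knockout.

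**Figure D4:**
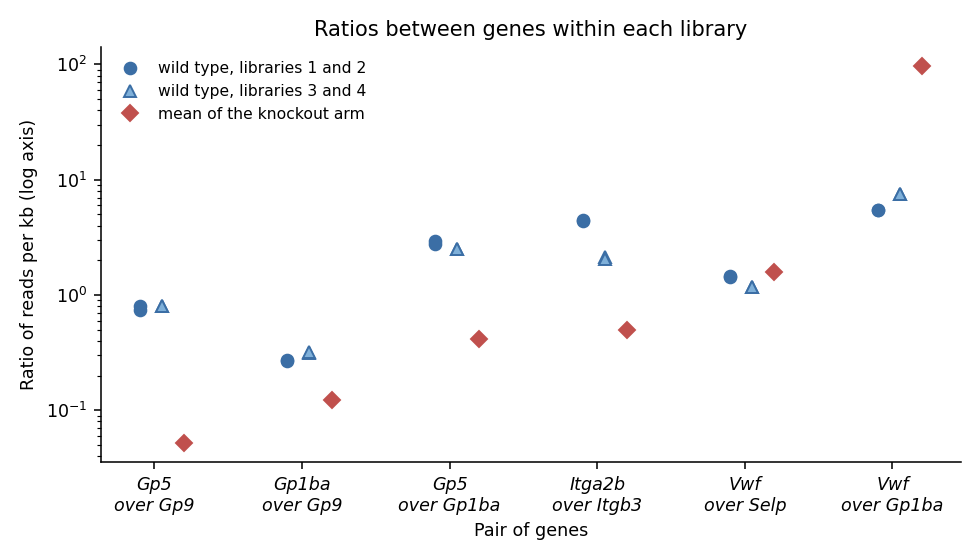
Ratios between 6 pairs of genes, in normalised reads per kb of exon (log axis), in each wild-type library and in the mean of the arm labelled knockout (diamond). Vwf over Gp1ba is at most 7.53 in wild type and 96.3 in that arm, and Itga2b over Itgb3 at least 2.06 and 0.494.

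The related genes of platelet formation and function were taken from 7 lists with 105 genes, 93 of which were measured, that is tested and with a mean of both arms of at least 10 normalised counts. Of these 6 fell and 2 rose in the authors' deposited table, against 4.30% lower and 3.72% higher over 17684 features at that level. Their median log2 fold change was -0.03, against -0.04 for those features. The calls were few in number and lay in granule contents, transcription factors, an agonist receptor and a maturation gene.

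Downstream of GPVI and CLEC-2, none of 16 measured genes of signalling through ITAM motifs, the tyrosine pairs that recruit Syk, was called. Their median log2 value by the authors' deposited table was -0.73. Of the 16, 12 were negative and 4 positive, where 48.3% of all features at that level were positive. Plcg2, the phospholipase of this pathway, was at 15488 to 19257 normalised counts in wild type and 16936 in the arm labelled knockout, and the inhibitory phosphatase gene Inpp5d at 11752 to 14053 and 8127. Of 15 genes of integrin activation and linkage to the cytoskeleton none was called either, and their median log2 value was 0.51. Talin (Tln1), which switches integrins on, was at 68957 to 72782 normalised counts in wild type and 50968 in the arm labelled knockout, and filamin (Flna), which tethers GPIbα, at 35436 to 40216 and 45617. Of 5 measured partners and ligands none was called, with a median of -0.49. Their highest were the sheddase Adam10 and Selplg, the P-selectin ligand, the latter at 5173 to 5737 normalised counts in wild type and 1828 in the arm labelled knockout (authors' deposited table, adjusted p 0.317).

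Among 10 measured receptors for soluble agonists and inhibitors, 1 fell and 0 rose, with a median log2 fold change of 0.09. F2rl2, the thrombin cofactor receptor PAR3, fell by a factor of 9.99 (authors' deposited table, adjusted p 0.00674), from 397, 368, 454 and 455 normalised counts to 40.5. It lies wholly within the span of Iqgap2 on the other strand, so its count is uncertain.

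Of 21 genes of granule contents and granule formation, 2 rose and 2 fell, with a median of -0.15. Thrombospondin (Thbs1), an adhesive granule protein, rose by a factor of 48.3 (authors' deposited table, adjusted p 3.35e-06), from 99.9, 96.3, 270 and 278 normalised counts to 9076. The growth factor gene Pdgfa rose by a factor of 16.6 (authors' deposited table, adjusted p 0.000813), from 19.1 to 34.7 normalised counts to 479. The platelet chemokine Pf4 fell by a factor of 9.57 (authors' deposited table, adjusted p 0.00728), from 2305, 2142, 2917 and 2790 normalised counts to 264. The other chemokine gene called, Ppbp, fell by a factor of 9.43 (authors' deposited table, adjusted p 0.00896), from 204 to 242 normalised counts to 22.1. These genes are all granule products, and what parts those that rose from those that fell was not tested.

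Of 17 transcription factors of megakaryocytes 2 fell and 0 rose, with a median of -0.51. Gata1, the master regulator of the erythroid and megakaryocyte lineages, fell by a factor of 31.5 (authors' deposited table, adjusted p 3.4e-05), from 1515, 1470, 1441 and 1415 normalised counts to 45.2. Gfi1b, a repressor needed in both lineages, fell by a factor of 22.3 (authors' deposited table, adjusted p 0.000172), from 2668 to 3366 normalised counts to 135. Gp5 was lower by a factor of 32.4, while the other tested members ran from a log2 value of -2.38 (Gp1ba) to 1.59 (Clec1b). Any link between Gata1 and these genes was not tested. Gp5 and Gata1 both lay below all 4 wild-type libraries, as 37.9% of all tested features did. Of 10 genes of thrombopoietin signalling and maturation, 1 fell and 0 rose, with a median of 1.07. The member that fell was Tubb1, the tubulin of the platelet marginal band, by a factor of 8.19 (authors' deposited table, adjusted p 0.0195), from 65.2 to 113 normalised counts to 9.56.

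**Figure D5:**
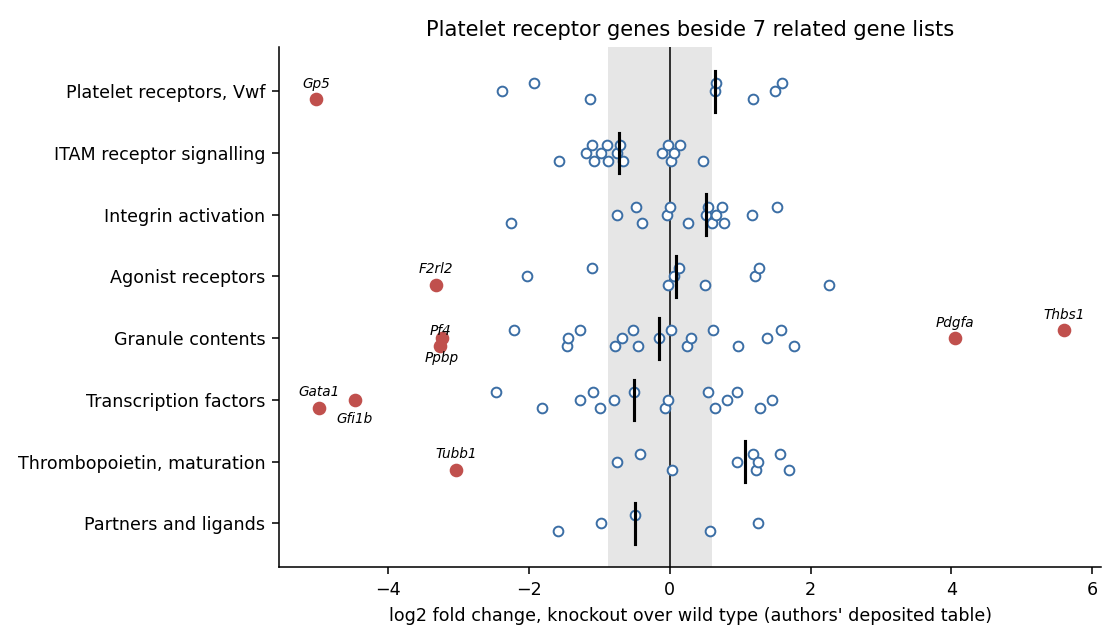
Log2 fold changes of the arm labelled knockout over wild type in the authors' deposited table for the 9 tested genes and 7 related lists, with filled circles for an adjusted p under 0.05, black bars for medians and shading for the middle 50% of all tested features. Gp5 lies at -5.02, the other tested members run from -2.38 to 1.59, and the called granule genes lie on both sides of 0.

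Markers of cell types that could add to these values moved as follows, and their part in the results was not tested. For the counts called, the share over all 17684 features with a mean of at least 10 normalised counts was 4.30% lower and 3.72% higher. Stem cell and sort markers were at 103031 to 133009 normalised counts in sum in wild type and 103392 in the arm labelled knockout, with 0 of 7 called. Their median log2 value in the authors' deposited table was 0.36, with 5 positive and 2 negative. By that table Procr was 5.41-fold higher (adjusted p 0.0589) and Hlf 3.63-fold lower (adjusted p 0.201). Of 6 measured markers of maturing megakaryocytes and platelets, 3 fell (Pf4, Ppbp and Tubb1) and 0 rose, while the summed level of the 7 listed was 29921 to 44156 normalised counts in wild type and 41945 in the arm labelled knockout. That sum rests on Plek and Nfe2, which HSCs also express. P2ry12, a defining receptor of mature platelets, was at or below 11.6 normalised counts in all libraries and at 4.28 in the arm labelled knockout. Erythroid markers had a summed level of 4040 to 5697 normalised counts in wild type and 605 in the arm labelled knockout, with 4 of 7 lower and none at 0 reads. Mast cell markers were at 857 to 1150 and 90.0 in sum, with 3 of 4 lower. Endothelial markers, which bear on Vwf and Selp, were at 41867 to 52408 and 68442 in sum over 12 genes, with 1 higher (Sele) and 1 lower (Cldn5). Their median log2 value in the authors' deposited table was -0.14, with 6 positive and 6 negative. The higher sum rests on Eng, which HSCs also express and which was not called (adjusted p 0.542 in the authors' deposited table). Without Eng, left out after its value was seen, the sum was 27967 to 33023 in wild type and 31132 in the arm labelled knockout. The largest level left in it was Tie1, at 14399 to 14861 normalised counts in wild type and 14890 in the arm labelled knockout. Whether either sum reflects endothelial cells was not tested. The junction gene Cdh5, which defines endothelium, was at 16.7 to 38.2 normalised counts in wild type and 46.5 in the arm labelled knockout (adjusted p 0.826 in the authors' deposited table). Other endothelial markers that were not called moved in both directions. Among them Emcn was lower, at 808 to 1542 normalised counts in wild type and 304 in the arm labelled knockout. Stab2, at 30.5 to 46.1 and 6.59, and Pecam1, at 2959 to 3710 and 2506, were lower too. Esam, at 4998.6 to 6468.5 and 9011 normalised counts, and Plvap, at 52.5 to 70.1 and 169, were higher. Neutrophil markers were at 48716 and 47921 in libraries 1 and 2, at 10030 and 9961 in libraries 3 and 4 and at 29317 in the arm labelled knockout, with 0 of 7 called.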

How the data were processed

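RNA of freshly sorted HSCs was extracted with a Qiagen RNeasy Micro kit, polyA-selected and made into TruSeq libraries, per the labels' protocols. Per the submitters' processing notes mm9 and DESeq are listed, with no role or version. For aligner, counter and annotation, a name was not given in the sources used here. Whole-number read counts per feature were deposited by the authors. Their length-scaled signal, headed FPKM, equals the deposited count per kb of exon over a constant of 50 in every library, to a relative difference of 3.7e-14, and gave exon lengths only. The deposited log2 fold change is knockout over wild type, and the deposited p-value is taken to be adjusted because values tie in 9569 of 13161 features with many reads. Of 30 columns, 8 were left out because they give values of single libraries that match no sample analysed here.

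Median-of-ratios size factors (0.951, 0.955, 1.05 and 1.06) scaled the counts, and the knockout mean was brought to the same scale by the offset of 0.40 (log2) between their fold change and the raw ratio. The 4 libraries are labelled technical replicates of 1 biological replicate, while the series design speaks of duplicates. No test between arms was run, and calls are the authors' at an adjusted p under 0.05. At these depths 3 counts, the floor, equal at most 0.0737 CPM. Size factors and offsets were tested on simulated data. The members and lists were chosen with earlier results of these data known. All 10 members are named, up to 4 called genes per list, or the 2 highest where none was called, and other genes were chosen after their values were seen. Marker lists covered stem, lineage, megakaryocyte, endothelial, erythroid, mast cell and neutrophil genes, and 1 of the lineage markers had no match by name. A few genes of these lists are not reported here and were left out of the counts and sums. Software was Python 3.11.15, numpy 2.4.6, pandas 2.3.3, R 4.3.3 and edgeR 4.0.16 (TMM factors only).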

Additional observations from a re-analysis of the deposited data

How the results depend on the processing

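At a threshold of 0.1 on the authors' adjusted p, 2 of the 9 tested genes were lower, Gp5 and Gp1ba, against 5.13% of all tested features, and at 0.01 only Gp5 was, against 1.78%. Without the rows shared with or overlapping another feature, or with a minimum of 10 normalised counts, the count lower stayed at 1 and the count higher at 0. Of the genes of the related lists, 5 to 9 were lower and 2 to 3 higher over the thresholds and minimum levels tried. At 0.1, 9 of 93 were lower and 3 higher, against 5.13% and 4.25% of all tested features. At 0.01 these were 5 and 2, against 1.78% and 1.75%. Those shares include features below the minimum level that the 93 passed, so the sets are not alike. At 0.05 the shares were 4.30% lower and 3.72% higher with that minimum, and 3.70% and 3.15% without it. The number of genes with a knockout mean above wild type was 5 under every scaling tried. With a wild-type library left out, a library pair alone or a pseudocount it could not change, because each mean lay outside all 4 libraries. The number at least 1.5-fold higher in libraries 3 and 4 was 3 to 3 with a library left out, 3 with TMM factors and 2 with library totals, where Vwf came to a log2 difference of 0.57. The log2 ratio for Gp5 ran from -5.40 to -4.86. Of 81 recomputed log2 ratios, 11 moved by more than 1 SD of the 4 single libraries. That spread is technical by the labels but includes the gap between library pairs, so genes with a wide gap can shift far without counting as moved. None changed sign, which was possible only under the other scalings. The authors' calls could not be recomputed with a library left out. No paired analysis was possible because there is 1 labelled group. At the depth of these libraries Gp6 was too low to compare.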

Other observations

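Sele and Cldn5 were looked at after their values were seen. Sele, the endothelial E-selectin, had 2.10, 4.19, 0 and 0 normalised counts in wild-type libraries 1 to 4 and 45.8 in the arm labelled knockout, and rose by a factor of 16.4 (authors' deposited table, adjusted p 0.00337). It passed the minimum level through the arm labelled knockout alone. The tight junction gene Cldn5, an endothelial marker, fell by a factor of 25.2 (authors' deposited table, adjusted p 0.000126), from 338 to 528 normalised counts to 15.5.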
